A study of Bos taurus with 8 samples.

Results

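Apolipoproteins, the receptors that bind them and reelin were followed in the granulosa cells of atretic and growing dominant follicles of cattle. The 7 genes were listed by name: the apolipoproteins APOA1, APOE and APOD, the scavenger receptor SCARB1, the lipoprotein receptors LRP8 and VLDLR, and the ligand RELN. Every probe that the platform annotation pairs with one of these symbols was taken, which gave 11 of 43794 probes and 6 of the 7 genes, out of 15229 symbols on the array. VLDLR has no probe under its symbol in the annotation used, and it was not analysed here. No member was filtered on its values here, but the list was made with earlier results of these data known.

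The follicles were over 9 mm in diameter and came from ovaries of Holstein cattle collected at slaughter. Mural granulosa cells were scraped from each, and the phase of the follicle, growing or atretic (in regression), was assigned from the DNA content of its cells by flow cytometry. The phase thus rests on DNA content, and no treatment separated the groups. There were 4 follicles in each phase, each an individual sample whose animal of origin, age and cycle day are not given in the sources used here. After amplification, an atretic and a growing sample were put on a shared array in different dyes (Cy5 and Cy3), then again with the dyes exchanged, so that 8 arrays hold 4 pairs. Each pair gives a log2 ratio, atretic over growing, averaged over its 2 arrays. Each follicle gives a level, the normalized log2 intensity of its own channel averaged over the same arrays. Levels of single genes are compared between follicles for the same probe, never between probes. A summed level of a marker list adds the intensities of its probes before taking log2, so its brightest probes weigh most.

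Follicular fluid holds high-density lipoprotein, whose main protein is APOA1, but little of the larger lipoproteins that carry APOB. Granulosa cells take up cholesterol from it through SCARB1, which removes cholesteryl ester from the particle without taking the particle in, and use it for steroid synthesis. LRP8 (apolipoprotein E receptor 2) and VLDLR bind APOE and also RELN, a large secreted glycoprotein best known from the developing brain, where it signals through the adaptor DAB1. APOE also brings lipoproteins to receptors on the cell surface and accepts cholesterol leaving cells. APOD is a lipocalin, unrelated in structure to the other apolipoproteins, that binds arachidonic acid and progesterone.

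The arrays set some limits on all members. The median spot was 4.10 to 5.45 times its local background in Cy5 and 8.97 to 13.6 times in Cy3. In each channel, 48.4% to 72.1% of probes exceeded the 95th percentile of the negative controls. The dye-swapped arrays of a pair correlated at 0.62 to 0.78 across probes. Across all probes, pair 1 ran against the other pairs, with correlations of -0.22, -0.37 and -0.06 to pairs 2, 3 and 4. The direction of each ratio was kept as the dyes in the labels give it, and 54.8% of genes had a sign in pair 1 opposite to the mean of pairs 2 to 4. Granulosa markers were present in all 8 follicles, and 10 of the 11 listed were brighter than the negative controls on every array. CYP17A1, the steroid enzyme that defines theca cells, was at 9.49 in the atretic follicle of pair 1, at 9.12 in the growing follicle of pair 3, at 9.11 in that of pair 2 and at 7.19 to 7.72 in the other 5, where the mean 95th percentile of the negative controls was 7.32. All 10 theca markers were measured, and their summed level ran from 12.6 to 13.3 in atretic and from 12.1 to 13.7 in growing follicles. In bulk samples such as these, fewer cells of a type and less RNA per cell cannot be told apart.

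Of the 6 genes with a probe, APOA1 was higher in atretic follicles and past the study's threshold (an unadjusted p under 0.05 and a change of 1.5-fold or more), and the other 5 were not. Across all 13625 genes in the fit, 5.11% were past this threshold, with 2.66% higher and 2.44% lower in atretic follicles, so that a count of 1 among 6 genes is too small to be set apart from that background. After Benjamini-Hochberg adjustment in limma, 0 of 36295 probes (0%) had a p under 0.05. The smallest adjusted p was 0.716 and 2324 of 36295 probes (6.4%) had an unadjusted p under 0.05. In all 6 genes the levels of atretic and growing follicles overlapped, whereas 2.03% of genes had every atretic follicle above every growing one, and 1.59% every one below. Whether the follicles came from separate animals is not known, so each p reflects only how much these follicles differed from pair to pair.

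**Figure D1:**
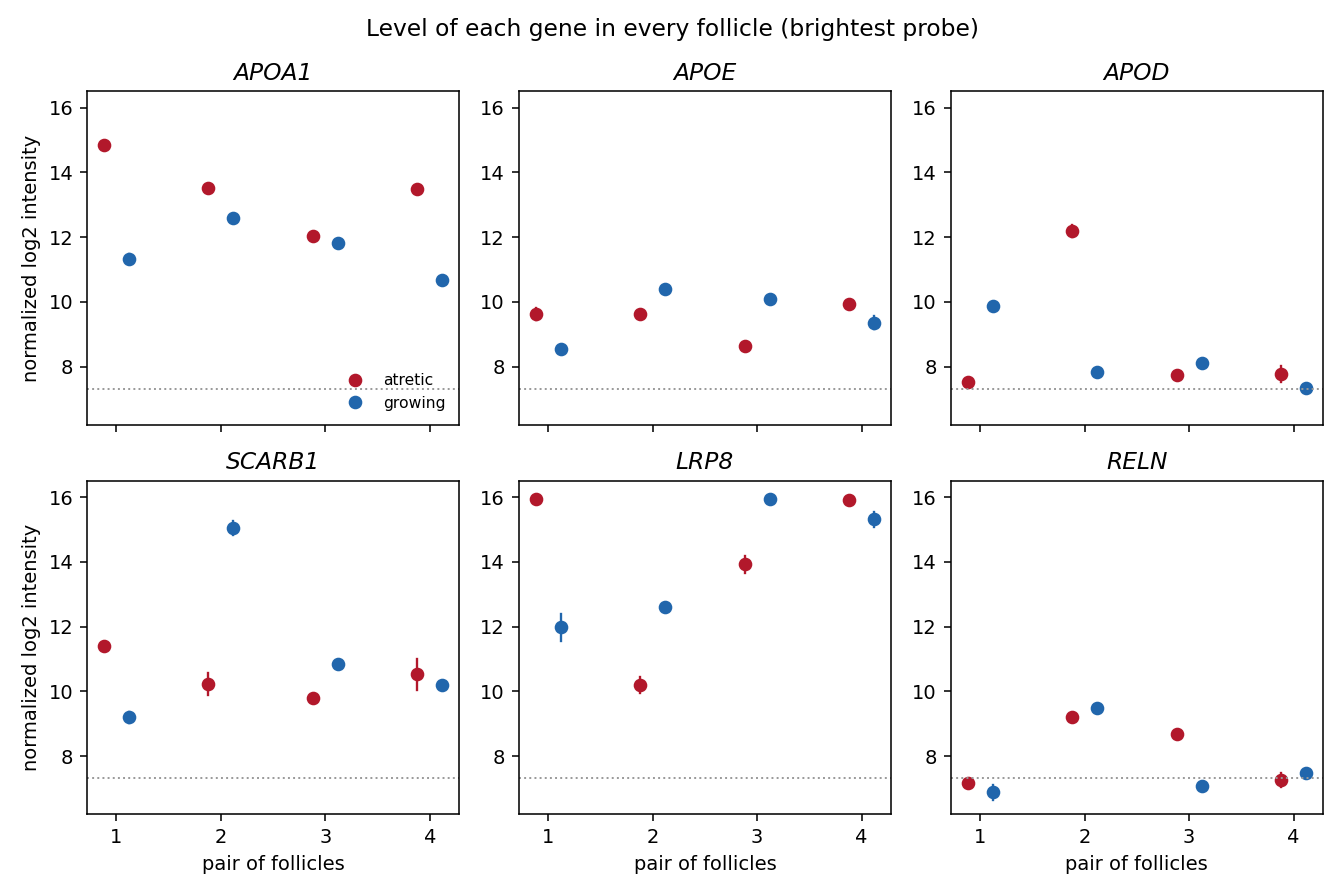
Level of APOA1, APOE, APOD, SCARB1, LRP8 and RELN in each follicle, as normalized log2 intensity of the gene's brightest probe, against the number of the pair. Points are means of 2 arrays (red, atretic; blue, growing), vertical lines join the values of the 2 arrays, and the dotted line is the mean 95th percentile of the negative controls at 7.32. APOA1 stood higher in the atretic follicle of every pair, while APOD and SCARB1 each had 1 follicle far above the rest.

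APOA1 was higher in the atretic follicle of all 4 pairs, by 3.62-fold on average. Its brighter probe (EMBV3_07752) read 14.85, 13.51, 12.02 and 13.48 in the atretic follicles of pairs 1 to 4. In the growing follicles of the same pairs it read 11.33, 12.60, 11.82 and 10.69. The atretic follicle of pair 1 was highest and the growing follicle of pair 4 lowest, and the atretic follicle was the higher in 15 of the 16 comparisons of any atretic with any growing follicle. The overlap came from pair 3, whose atretic follicle lay below the growing follicle of pair 2.

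The APOA1 log2 ratios of the pairs were 3.52, 0.91, 0.21 and 2.79, so that pairs 1 and 4 carried most of the difference and pair 3 hardly any. Their mean was 1.86 ± 0.61 (SE, n = 4 pairs), with a 95% confidence interval of 0.28 to 3.43. The limma fit gave an unadjusted p of 0.0292 and an adjusted p of 0.759 for this gene. A higher level in all 4 pairs was seen in 8.32% of genes. Without pair 1 the ratio was 1.30 and without pair 4 it was 1.54, and in both cases the gene was no longer past the study's threshold. CYP17A1 was highest in the atretic follicle of pair 1. The value without that pair is thus also the one without the follicle richest in this theca marker. DCN was also highest there, at 11.44, while the other theca markers on the list peaked in other follicles. The summed theca level was 13.1 there, against 13.7 in the growing follicle of pair 2. The part of theca cells in the difference was not tested. The study left an atretic sample, which it numbered A2, out of its PCR for theca RNA. The sources used here do not tie that number to a pair, and CYP17A1 read 7.42 in the atretic follicle of pair 2.

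The other APOA1 probe (EMBV3_01993) gave the same picture. Its log2 ratios in pairs 1 to 4 were 3.37, 0.60, 0.26 and 2.23, with a mean of 1.61 ± 0.57 (SE, n = 4 pairs) and an adjusted p of 0.771 in limma. Over the 8 follicles the levels of both probes correlated at 0.99, and the dye orientation made little difference, since the mean was 1.86 on the arrays with the atretic follicle in Cy5 and 1.85 on those with the growing follicle in Cy5. In the order of follicles, neighbours were called apart where their gap exceeded the larger difference between a follicle's own 2 arrays. By that measure, for the brighter probe, only the atretic follicles of pairs 2 and 4, next in order after that of pair 1, were not apart. The study also chose APOA1 for PCR, which it ran as a check on its array profiles, on samples that include these. It states no basis for the choice of each gene.

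APOE did not share the direction of APOA1 in all pairs, although its ratios put the pairs in the same order, with pair 1 highest, then pairs 4, 2 and 3. Its brightest probe (EMBV3_35742) read 9.63, 9.63, 8.62 and 9.94 in the atretic follicles of pairs 1 to 4. It read 8.53, 10.39, 10.09 and 9.36 in the growing ones. The groups overlapped throughout. The highest follicle was the growing one of pair 2. The lowest, the growing follicle of pair 1 and the atretic follicle of pair 3, were not apart. The log2 ratios of the pairs were 1.10, -0.77, -1.47 and 0.57, with a mean of -0.14 ± 0.47 (SE, n = 4 pairs), a 95% confidence interval of -1.35 to 1.07 and an adjusted p of 0.973 in limma.

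The disagreement between pairs for APOE was seen with each of its probes. The second probe (EMBV3_43097) had log2 ratios of 1.53, -0.63, -1.64 and 1.06, and a mean of 0.08 ± 0.58. The last (EMBV3_16107) had 0.79, -0.40, -0.78 and 0.34, and a mean of -0.01 ± 0.29 (SE, n = 4 pairs for both). By the pair means of all of them, pairs 1 and 4 were higher in the atretic follicle and pairs 2 and 3 lower, and the levels of the 3 probes correlated at 0.90 to 0.95 over the 8 follicles. For EMBV3_16107 the dye swaps differed in sign in pair 2 (-0.98 and 0.18) and in pair 4 (-0.09 and 0.77). For the brightest probe, the mean near 0 is thus an average over pairs that differed in opposite directions, each by more than its dye swaps differed. Leaving out pair 2 or pair 3 turned the sign of the mean, to 0.07 and 0.30.

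**Figure D2:**
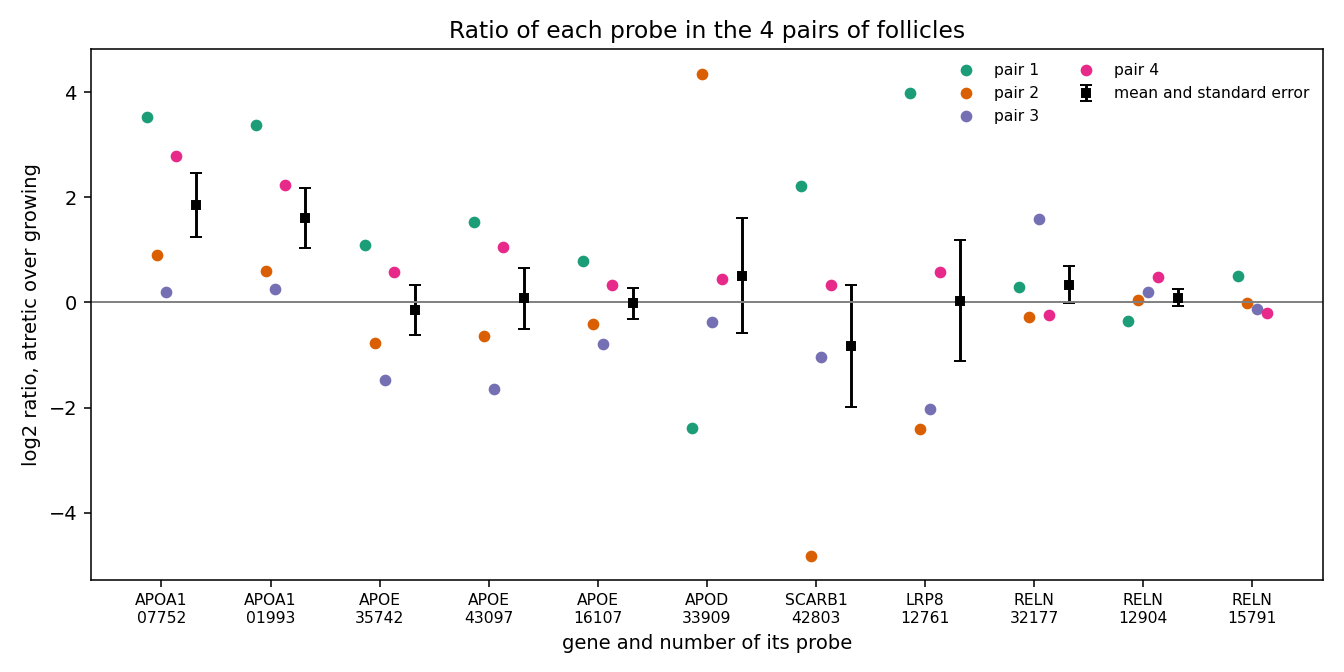
Log2 ratio, atretic over growing, of all 11 probes in the 4 pairs, with the mean and standard error of the fit as black squares (the last RELN probe, under the intensity minimum, was not fitted and has none). The APOA1 probes lie above 0 in every pair, and the 3 APOE probes keep the same order of pairs around 0. APOD, SCARB1 and LRP8 have pairs far above and far below 0, such as 4.35 and -2.38 for APOD.

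APOD had its highest level in a single atretic follicle. Its probe (EMBV3_33909) read 7.51, 12.18, 7.75 and 7.76 in the atretic follicles of pairs 1 to 4. In the growing follicles it read 9.89, 7.83, 8.12 and 7.32. The atretic follicle of pair 2 stood far above all others, and the growing follicle of pair 1 came next. The other 6 lay between 7.32 and 8.12, near the mean 95th percentile of the negative controls at 7.32. The probe was brighter than the negative controls on 8 of 8 arrays for atretic and 7 of 8 for growing follicles. The log2 ratios of the pairs were -2.38, 4.35, -0.37 and 0.44, with a mean of 0.51 ± 1.10 (SE, n = 4 pairs) and an adjusted p of 0.955 in limma. The direction of the mean rested on pair 2, without which it was -0.77.

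The follicles with the most APOD were also those with the highest summed level of smooth muscle and pericyte markers, 13.5 in the atretic follicle of pair 2 and 13.3 in the growing follicle of pair 1, against 12.5 to 13.1 in the other 6. All 7 of these markers were measured and 3 were brighter than the negative controls on every array. MYH11, the myosin heavy chain of smooth muscle, was at 12.28 and 12.17 in those follicles, but also at 11.88 in the atretic follicle of pair 3, where APOD was low. The other markers of the list did not single out those follicles together. ACTA2 (smooth muscle actin) was highest in the growing follicle of pair 4, at 12.66, where APOD was lowest. CNN1 (calponin) was highest in the growing follicle of pair 2, at 10.81, and at 7.95 in that of pair 1. CSPG4 was lowest in the atretic follicle of pair 2, at 7.70, where APOD was highest. It was at 7.93 in the growing follicle of pair 1 and highest in that of pair 3, at 10.08. TAGLN, DES and RGS5 stayed between 6.93 and 7.58 in all 8 follicles. The part of such cells in the APOD values was not tested.

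SCARB1, the receptor for high-density lipoprotein, was dominated by a growing follicle. Its probe (EMBV3_42803) read 11.41, 10.23, 9.79 and 10.53 in the atretic follicles of pairs 1 to 4. It read 9.20, 15.04, 10.84 and 10.20 in the growing ones. The growing follicle of pair 2 lay 3.63 log2 units above the next highest follicle, and the remaining 7 overlapped with no order between phases. The log2 ratios were 2.21, -4.81, -1.04 and 0.33, giving a mean of -0.83 ± 1.16 (SE, n = 4 pairs) with an adjusted p of 0.927 in limma. Without pair 2 the mean turned to 0.50.

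The growing follicle of pair 2 stood apart in other genes too. It held the highest COL1A2, a fibrillar collagen of stromal and theca cells, at 11.39 against 7.52 to 9.52 in the other 7. It also had the lowest CYP19A1 (aromatase, the enzyme that makes oestradiol), at 7.42, and the lowest FSHR (the receptor for follicle-stimulating hormone), at 7.85 against 9.50 to 11.35. Its summed theca level of 13.7 was the highest of the 8 follicles, and COL1A1 was also highest there, at 9.37. CYP17A1, INSL3, NR2F2, PTCH1, GLI1, PDGFRA and DCN peaked in other follicles, while TCF21 was lowest in this one, at 8.41. Of the granulosa list INHBB, NR5A2 and HSD17B1 were also lowest there, while FOXL2, AMH, INHA, INHBA, GJA1 and FST were not. The summed granulosa level of this follicle was 16.9, against 15.98 to 18.1 over the growing follicles. Whether these bear on its SCARB1 level was not tested.

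LRP8 ran over the second widest range of the 6 genes and without regard to phase. Its probe (EMBV3_12761) read 15.96, 10.20, 13.93 and 15.90 in the atretic follicles of pairs 1 to 4. It read 11.98, 12.60, 15.95 and 15.32 in the growing ones. The atretic follicles of pairs 1 and 4 and the growing follicles of pairs 3 and 4 formed the upper 4, while the lowest follicle was the atretic one of pair 2. The log2 ratios of the pairs were 3.98, -2.41, -2.02 and 0.58.

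The mean LRP8 ratio was 0.03 ± 1.15 (SE, n = 4 pairs), with a 95% confidence interval of -2.93 to 2.99 and an adjusted p of 0.997 in limma. An interval this wide leaves room for a large difference in either direction. The sign of the mean also changed with the scaling, to -0.12 with loess alone or with Aquantile. The 3 highest follicles were not apart from each other, and the brightest raw spot of LRP8, at 64725, was at 98.8% of the scanner's upper limit of 65535. No LRP8 spot reached the limit, but the order of the brightest follicles cannot be read so close to it.

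By Pearson correlation of levels over the 8 follicles, the gene most like it among all genes tested was FST (follistatin, which binds activin), at 0.99. From pair 1 to pair 4, FST read 15.03, 10.88, 13.11 and 14.28 in atretic and 11.70, 12.09, 14.46 and 14.10 in growing follicles. Its upper 4 follicles were those of LRP8, and both genes were lowest in the atretic follicle of pair 2. CYP19A1 read 15.91, 8.80, 11.77 and 15.32 in the atretic and 11.43, 7.42, 15.76 and 14.66 in the growing follicles. The same 4 follicles were highest for LRP8, FST, CYP19A1, CYP11A1 (which starts steroid synthesis from cholesterol), HSD3B1 (which makes progesterone) and LHCGR (the receptor for luteinizing hormone).

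**Figure D3:**
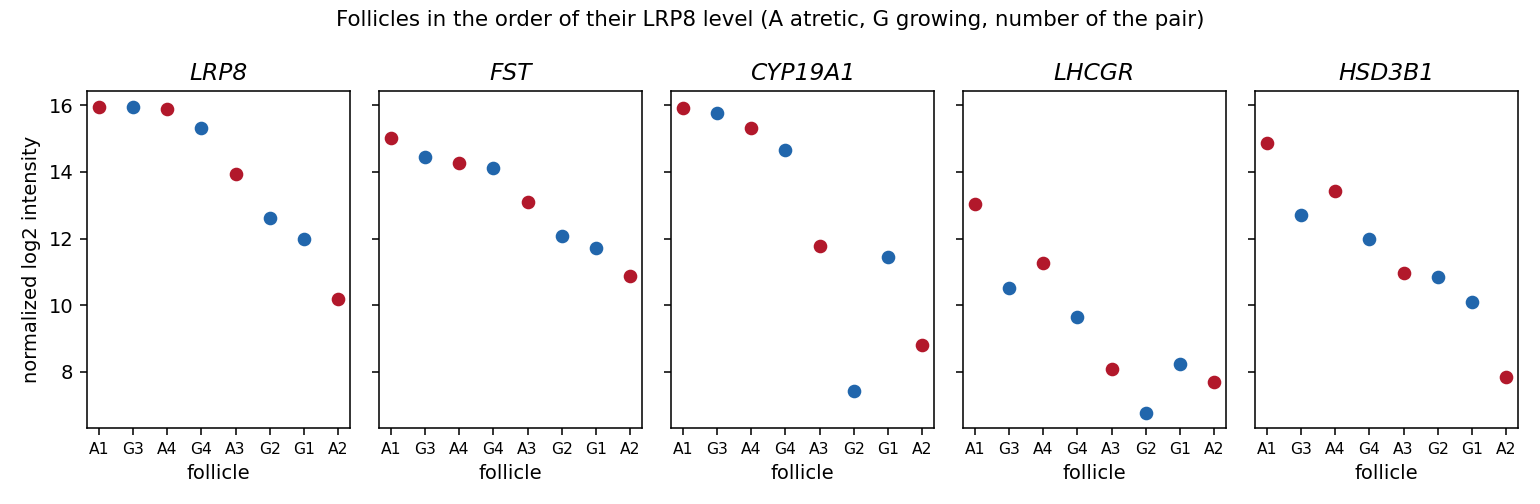
Levels of LRP8, FST, CYP19A1, LHCGR and HSD3B1, as normalized log2 intensity of each gene's brightest probe, with the 8 follicles ordered by their LRP8 level (red and A, atretic; blue and G, growing; the number is the pair). The upper 4 follicles for LRP8, of which 2 are atretic and 2 growing, are the upper 4 in every panel.

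The correlation of LRP8 with CYP19A1 was 0.89, with HSD3B1 0.93, with LHCGR 0.80 and with CYP11A1 0.78, and 98.8%, 99.7%, 96.5% and 96.1% of genes had a lower correlation with LRP8. With STAR, which carries cholesterol into the mitochondrion, it was 0.59, and with FSHR and CYP17A1 it was 0.38 and 0.30, which exceeded 76.0% and 71.3% of genes. The upper 4 follicles for FSHR and for CYP17A1 shared 2 with those for LRP8. These correlations are descriptions over 8 follicles that share arrays in pairs, and the points on a shared array are not independent. The summed level of 6 markers of luteinized cells was 16.6, 12.0, 12.6 and 14.5 in the atretic and 12.7, 13.2, 15.5 and 15.4 in the growing follicles. STAR, HSD3B1, CYP11A1 and LHCGR are among these 6, so the sum adds nothing independent to the values above. The summed levels of other marker lists also moved with LRP8, at 0.86 for granulosa cells, -0.82 for leukocytes and macrophages, -0.79 for smooth muscle and pericytes, -0.78 for endothelium and -0.44 for theca cells. The granulosa sum ran from 16.6 to 18.1 in atretic and from 15.98 to 18.1 in growing follicles, and it includes FST and CYP19A1. It also includes INHA and INHBA, which each reached 15.99 and had 7 saturated values each. The leukocyte sum, over 8 of 10 markers of which 1 exceeded the negative controls on every array, ran from 10.3 to 11.4 in atretic and from 10.4 to 11.1 in growing follicles. The endothelial sum, over 7 of 8 markers of which 0 did so, ran from 9.98 to 10.8 and from 9.98 to 11.6. The part of cell composition in the LRP8 levels was not tested.

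RELN, a ligand of LRP8, was near the limit of detection in most follicles. Its brightest probe (EMBV3_32177) read 7.17, 9.19, 8.67 and 7.25 in the atretic follicles of pairs 1 to 4. It read 6.88, 9.48, 7.09 and 7.48 in the growing ones. Both follicles of pair 2 and the atretic follicle of pair 3 stood above the rest, and the other 5 were not apart from their neighbours. The probe was brighter than the negative controls on 5 of 8 arrays for atretic and 4 of 8 for growing follicles. The growing follicles of pairs 1 and 3 were above them on neither of their arrays, nor was the atretic follicle of pair 4.

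The RELN log2 ratios of the pairs were 0.28, -0.29, 1.59 and -0.23, with a mean of 0.34 ± 0.35 (SE, n = 4 pairs) and an adjusted p of 0.903 in limma. Only in pair 3 did the follicles differ by more than 1 log2 unit, and without that pair the mean was -0.08. The second probe (EMBV3_12904) gave 0.09 ± 0.16 with levels of 7.09 to 7.56 in all follicles. The last (EMBV3_15791) lay below the mean log2 intensity of 7 required for the fit. The RELN probes did not agree on the order of follicles, with correlations of 0.27, 0.30 and -0.35 between them. RELN was on the same PCR list.

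RELN and LRP8 tended to opposite ends of the series. Over the 8 follicles their levels correlated at -0.62, and RELN correlated at -0.84 with CYP19A1, which 0.661% of genes fell below. Both follicles of pair 2, which had the most RELN, had the least CYP19A1. The atretic follicle of pair 1 and the growing follicle of pair 3, with the most CYP19A1, had RELN close to the negative controls. Since 5 of the 8 RELN levels were 7.48 or less, near the negative controls, these values rest on 3 follicles.

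Among the members themselves, likeness depended on the scale. For levels over the 8 follicles the strongest correlations were -0.84 between APOD and LRP8 and 0.74 between APOE and SCARB1, and APOA1 lay between 0.06 and 0.37 with each of the others. APOE and SCARB1 were both highest in the growing follicle of pair 2 and both lowest in the growing follicle of pair 1 and the atretic follicle of pair 3. On the scale of pair ratios, where each follicle is set against its partner, APOA1 and APOE put the 4 pairs in the same order, APOA1, APOE, SCARB1 and LRP8 were all highest in pair 1 with pair 4 next, and APOD was lowest in pair 1 and highest in pair 2, where SCARB1 and LRP8 were lowest. With only 4 pairs no correlation of ratios is given. The range over the 8 follicles was 4.16 log2 units for APOA1, 1.86 for APOE, 4.86 for APOD, 5.84 for SCARB1, 5.76 for LRP8 and 2.60 for RELN, against a median of 0.97 over all genes.

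For 99.8% of genes the range was smaller than that of SCARB1 or LRP8, for 99.4% smaller than that of APOD, for 98.7% smaller than that of APOA1, and for 93.1% and 83.5% smaller than those of RELN and APOE. The mean ratio between the phases, taken without its sign, exceeded that of 99.7% of genes for APOA1, 94.4% for SCARB1, 85.2% for APOD, 74.0% for RELN, 45.1% for APOE and 11.6% for LRP8.

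The genes whose levels were most like each member differed from member to member. For APOA1 they were NME6, TTLL3 and DUPD1, at 0.97, 0.96 and 0.93. For APOE they were ATP13A2, PCYT2 and LRPAP1, at 0.97, 0.95 and 0.94, and LRPAP1 is a chaperone of lipoprotein receptors. For APOD they were CNTNAP4, STK25 and CABC1, at 0.99, 0.98 and 0.98, for SCARB1 BCAT1, GLS2 and SYNCRIP, at 0.99, 0.98 and 0.98, and for RELN GCNT2, GALNTL4 and SERPIND1, at 0.98, 0.98 and 0.97. Beside FST, LRP8 was most like NDUFB5 and C19H17orf42, both at 0.98. These are the best matches among 13625 genes over only 8 follicles that share arrays in pairs, and in SCARB1 a single follicle holds most of the range.

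The pathways around the members gave scattered calls. Of 17 other apolipoproteins, 12 were measured and 1 was higher past the study's threshold, with a median log2 ratio of -0.08 against 0.01 over all genes. APOH (beta-2-glycoprotein I, a plasma protein that binds phospholipid) was that gene. It read 10.97, 10.46, 11.63 and 10.58 in the atretic and 9.19, 9.70, 10.18 and 9.58 in the growing follicles. These levels did not overlap, and 2.03% of genes had every atretic follicle above every growing one. The APOH log2 ratio was 1.25 ± 0.20 (SE, n = 4 pairs) with an adjusted p of 0.716 in limma, but its other probe gave 0.04. CLU (clusterin, apolipoprotein J) was at -0.49 ± 0.38, with -1.84 in pair 1 and -0.42 to 0.21 in the others, and it was -0.040 without pair 1.

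In the family of LRP8 with its chaperones and adaptors, 9 of 18 genes were measured, 2 were higher and 1 lower past the threshold, and the median was 0.21. LRP6, the co-receptor of Wnt ligands, was lower in the atretic follicle of all 4 pairs, as were 6.79% of genes, with log2 ratios of -2.42, -2.20, -0.24 and -1.42 and a mean of -1.57 ± 0.39 (SE, n = 4 pairs, adjusted p of 0.716 in limma). Its levels of 12.10 to 13.34 in atretic and 13.51 to 15.05 in growing follicles did not overlap. Every atretic follicle lay below every growing one in 1.59% of genes. SORL1, a sorting receptor that binds APOE, was at 1.31 ± 0.48, with its other probes at 0.86 and 0.98, and LRP10 was at 0.74 ± 0.28. For both, pair 1 was the exception, at -0.25 and -0.02. LRPAP1 was at -0.18 ± 0.43. LRP1 has no probe under its symbol in the annotation used and was not analysed here.

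Among 12 scavenger receptors and adaptors, 11 were measured and 1 was past the threshold, with a median of -0.06. SCARB2, a lysosomal membrane protein related to SCARB1, was at 0.90 ± 0.33, with 0.62 and 0.49 at its other probes and 4 saturated values at the probe used. CD36, which binds oxidized lipoproteins and takes up fatty acids, was at 0.44 ± 0.16, under the fold required, while its other probes gave 2.25 and 0.76. Its value was 0.028 on the arrays with atretic samples in Cy5 and 0.85 on those with growing samples in Cy5. These orientations were on different slides, so dye and slide cannot be told apart. Of 20 genes of reelin signalling inside the cell, 17 were measured, 1 was past the threshold and the median was 0.04. That gene was NCK2, an adaptor protein, at 0.84 ± 0.28, with 0.04 and -0.05 at its other probes. DAB1, the adaptor that LRP8 and VLDLR use for the reelin signal, was at 0.04 ± 0.11. Its probe exceeded the negative controls on 1 of 8 arrays for atretic and 2 of 8 for growing follicles, at a mean log2 intensity of 7.11. A ratio near 0 at this level does not show that DAB1 was unchanged.

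Of 20 genes of cholesterol efflux, high-density lipoprotein remodelling and lipases, 14 were measured and 1 was past the threshold, with a median of -0.10. PON2, a lactonase of the paraoxonase family, was at 0.63 ± 0.22. ABCA1, which loads cholesterol onto APOA1, was at -0.09 ± 0.15, and NR1H3 (LXR alpha, a sterol-sensing regulator of ABCA1 and APOE) was at -0.73 ± 0.57, all as log2 ratios ± SE over 4 pairs. ABCA1 was near the limit of detection, above the negative controls on 4 of 8 arrays for atretic and 4 of 8 for growing follicles. The NR1H3 value rested on pair 2, at -2.68, without which it was -0.079. LPL has no probe under its symbol and was not analysed here. The counts of 1 to 3 genes per list stand beside 5.11% of all genes past the same threshold.

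**Figure D4:**
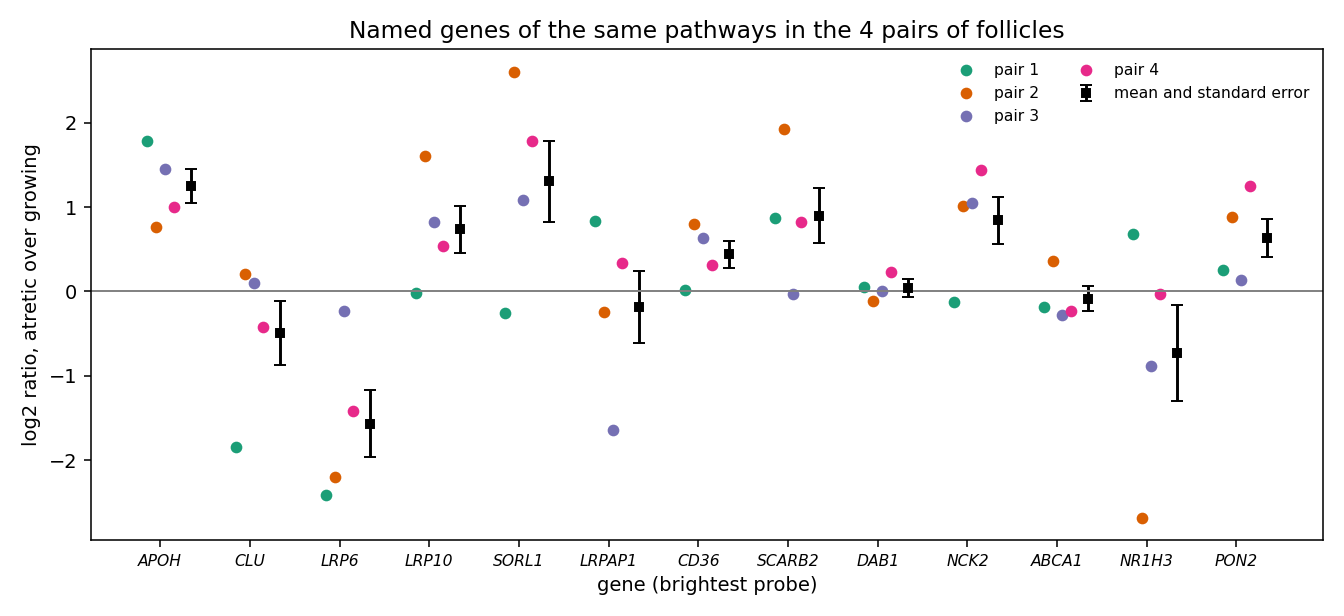
Log2 ratio, atretic over growing, in each of the 4 pairs for the named genes of the surrounding pathways, with the mean and standard error of the fit as black squares. APOH and PON2 are above 0 and LRP6 below 0 in every pair, whereas LRP10, SORL1 and NCK2 are below 0 in pair 1 only.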

How the data were processed

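The authors deposited scanner intensity values for every array, as median pixels of the spots and their surroundings in both dyes, without correction for background. They also deposited log2 ratios (Cy5 over Cy3), made by subtracting background and normalising by loess and quantiles. These correlated at 0.999 to 1.00 with ratios rebuilt from the intensities and served only as an alternative. Here intensities were corrected with normexp (offset 50), normalised by loess and quantiles and turned to atretic over growing, and the dye swaps of a pair were averaged. Control spots and the 4 to 50 spots per array excluded by the image software were left out, none of them a member's. The 36295 probes whose mean log2 intensity reached 7 entered, 10 of them for the members. Ratios were tested against 0 by limma (version 3.58.1, R 4.3.3), two-sided, and p-values were adjusted by Benjamini-Hochberg. The fit was tested on simulated data. A gene was represented by its brightest probe. Pairs were numbered from the array labels. The same-numbered arrays hold the same RNA extracts, and each of the 8 was closest to its dye swap. All members were named, with every list gene past the study's threshold, a fixed set of 9 list genes and the 3 most similar genes per member. The members, lists and tests were chosen with earlier results of these data known. Alternatives covered background, normalisation, filters, priors, dye orientation (slide 203 against slides 204 and 248), blocks and left-out pairs.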

Additional observations from a re-analysis of the deposited data

Results flagged for a closer look

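The level of APOD in the atretic follicle of pair 2, at 12.18 against 7.51 to 7.76 in the other atretic follicles, stood far from its group. The gap to the nearest atretic follicle was 0.945 of the whole range of the group. Both arrays of that follicle gave a high value, 12.00 and 12.37. Such a test singles out about 1 in 20 groups by chance, and 12 groups of levels were examined for the members.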

How the results depend on the processing

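With the pair number as a replicate block over all 8 arrays, 2243 probes passed the study's threshold and 21 an adjusted p of 0.05, against 1275 and 0 when dye swaps were averaged. With a dye term added to that block the counts were 2161 and 17, and with no replicate block they were 2248 and 615, where both arrays of a pair count as independent. The block changed no call among the members, and APOA1 kept its ratio of 1.86 with an adjusted p of 0.0840, within 0.0649 to 0.996 over all its alternatives. The 4 arrays with atretic samples in Cy5 gave 2569 probes past the study's threshold and the other 4 gave 2190. Leaving out each pair in turn gave 781 to 3402 such probes and 0 to 1 member genes. The share of these probes that were higher in atretic follicles was 51.5%, 72.8% with median centring only, 42.2% with loess alone or with Aquantile and 61.3% on the arrays with atretic samples in Cy5.

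The sign of the mean turned in LRP8 with loess alone (-0.12), with Aquantile (-0.12) and on the arrays with growing samples in Cy5 (-0.29), and in ABCA1 on those arrays (0.052). DAB1 turned with median centring (-0.019). Leaving out each pair in turn gave -1.28 to 0.84 for LRP8 (below 0 without pair 1 or 4), -0.55 to 0.30 for APOE, -0.77 to 1.47 for APOD, -1.84 to 0.50 for SCARB1, -0.078 to 0.55 for RELN, -0.52 to 0.31 for LRPAP1 and -0.018 to 0.095 for DAB1. The causes were not tested. APOA1 stayed higher in all 19 alternatives and past the study's threshold in 17 of them. LRP6 and APOH stayed past it in all 19, whereas LRP10, SCARB2 and NCK2 fell short in 7 each, PON2 in 6 and SORL1 in 4, and CD36 passed in 2. For RELN, follicles at the level of the negative controls allow only a bound. The same holds for APOD in the growing follicle of pair 4, which was above them on 1 of its 2 arrays.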
